A study of Mus musculus with 4 samples.

Results

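Lhx2, Rax, Pax6, Six3, Six6, Neurod1, Otx2 and Crx are transcription factors that set the fates of retinal cells, and they are described here in mouse retinas after inhibition of the microRNA miR-124-3p. The rule that picks them uses names and no measured value, though the group was proposed with earlier results of these data known, and they make up 8 of the 48897 genes in the deposited table of read counts. The libraries were RNA-Seq libraries of whole retina from wild-type C57BL/6 mice, with 2 libraries in the anti-miR-124 group and 2 in the NC (negative control) group. On postnatal day 3, the anti-miR-124 group received 0.6 nmol of a miR-124-3p antagomir in 1 μl into the vitreous of the left eye, and the NC group is the right eyes, which received a scrambled antagomir. As the paper describes it, the mice were injected in both eyes, so the groups come from fellow eyes. An antagomir is an antisense oligonucleotide, chemically modified, that sequesters its mature microRNA. Retinas were taken on postnatal day 9, 6 days after the injection, and mixed within each group, so that both groups carry the injection and no uninjected retina was compared. Each group was drawn from at least 2 litters, and the p-values measure only the spread between these mixed libraries. The table names each library by the eye and a number, and the right-eye and left-eye libraries of 1 number are written NC-A and anti-A (pair A) and those of the other NC-B and anti-B (pair B), as the labels do not tell which of them is replicate 1. Whether libraries of the same number come from the same mice is not stated, and the main test does not pair them.

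The eye field of the embryo is set up by a group of homeodomain factors that act together, among them Pax6, Rax, Six3, Six6 and Lhx2, and these factors then keep retinal progenitors dividing and able to form the several cell types of the retina. Later, each of them is retained in particular cells. Pax6 stays in amacrine, horizontal and ganglion cells, Lhx2 and Rax in Müller glia, and Rax also in photoreceptor precursors. Otx2 commits cells to the photoreceptor and bipolar fates and activates Crx, the homeodomain factor that drives the genes of rods and cones, while the bHLH factor Neurod1 acts in photoreceptor differentiation and in amacrine cells. miR-124 is among the most abundant microRNAs of neurons, and repression of Lhx2 by it has been linked to the maturation and survival of cones.

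Crx and Otx2 recognise a homeodomain site with the core GGATTA, which reads TAATCC on the other strand, and LIM and paired-type homeodomain factors such as Lhx2 and Rax recognise the core TAATTA. Promoter windows from 250 bases before to 50 bases after the annotated start were read from RefSeq (GRCm38.p6), and 7 of the 8 factors, all but Rax, had 1 or more. The 4 windows printed here all hold GGATTA. They are those of Crx and Otx2, the factors that hold it, and of Rbp3 and Gnat2, photoreceptor genes regulated by Crx and described later. They are printed 5′ to 3′ on the strand of the gene, with GGATTA in capitals.
Crx, chr7:15879906-15880205, minus strand: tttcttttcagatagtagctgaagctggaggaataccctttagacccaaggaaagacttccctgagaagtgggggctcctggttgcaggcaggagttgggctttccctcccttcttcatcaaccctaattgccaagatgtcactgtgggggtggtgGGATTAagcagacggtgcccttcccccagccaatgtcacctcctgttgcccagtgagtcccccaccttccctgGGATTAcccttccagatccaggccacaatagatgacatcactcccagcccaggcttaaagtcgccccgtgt
Otx2, chr14:48665060-48665359, minus strand: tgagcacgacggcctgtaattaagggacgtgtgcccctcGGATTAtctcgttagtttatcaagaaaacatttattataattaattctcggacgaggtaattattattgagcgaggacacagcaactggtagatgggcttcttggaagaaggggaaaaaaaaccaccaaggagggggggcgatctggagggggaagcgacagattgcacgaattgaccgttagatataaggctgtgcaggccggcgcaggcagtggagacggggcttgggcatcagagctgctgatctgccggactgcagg
Rbp3, chr14:33953753-33954052, plus strand: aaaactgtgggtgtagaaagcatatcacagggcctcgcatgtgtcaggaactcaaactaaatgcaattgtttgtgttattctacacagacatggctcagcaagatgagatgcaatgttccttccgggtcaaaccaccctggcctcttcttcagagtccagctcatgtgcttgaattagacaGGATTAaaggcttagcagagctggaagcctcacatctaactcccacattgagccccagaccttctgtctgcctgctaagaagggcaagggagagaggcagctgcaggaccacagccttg
Gnat2, chr3:108092816-108093115, plus strand: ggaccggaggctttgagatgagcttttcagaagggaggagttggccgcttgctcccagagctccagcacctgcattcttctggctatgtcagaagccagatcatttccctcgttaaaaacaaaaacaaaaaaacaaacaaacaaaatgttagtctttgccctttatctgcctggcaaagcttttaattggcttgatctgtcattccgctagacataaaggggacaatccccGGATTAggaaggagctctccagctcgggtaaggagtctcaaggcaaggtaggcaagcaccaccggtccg
The Crx window held the core at 94 and at 21 bases before the start, and the Otx2 window, 1 of 4 annotated for that gene, at 211 bases before it. In the Rbp3 window it lay 69 bases and in the Gnat2 window 19 bases before the start. The core was found on either strand in 2320 of all 32851 windows (7.06%), or in 8.14% of 27025 genes, against 7 of 14 rod and cone genes with a window in the list described later. The core TAATTA was found in 5.29% of the windows, and among the 7 factors only in windows of Otx2, of which 2 held it, the printed one among them. The matches are letters in these windows and do not show binding.

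Reads counted on genes numbered between 16317239 and 18726963 per library. NC-A stood apart, as 21 lens marker genes took 6.26% of its TPM sum, against between 0.0126% and 0.0180% in the other 3 libraries. TPM is a share of the library after scaling by gene length, so a large share of lens RNA lowers the TPM of every other gene, and the median log2 TPM ratio of pair A over the tested genes was 0.0981, against -0.000261 in pair B. TMM normalization, which sets the scale from the bulk of the genes, gave medians of -0.00941 and 0.00314. The summed TPM of 15 microglia markers was 713.0 in anti-B and between 227.5 and 279.7 in the others, and that of 12 pigment epithelium markers was 89.5 in NC-A and between 131.8 and 182.1 in the others. At an unadjusted p-value under 0.05, 17 of 19 tested lens genes were lower after inhibition. Of 15 microglia genes 3 were higher, and of 11 tested pigment epithelium genes 1 was higher. The median log2 fold change of the lens genes was -7.642, but 0.45 without NC-A. That of the microglia genes was 0.895, with 0.101 without anti-B, 0.543 without NC-B, 1.22 without NC-A and 1.403 without anti-A. For the pigment epithelium genes it was 0.42, and 0.329 to 0.636 when 1 library was left out. A fit without 1 library leaves its group with a single library, so its p-values take the spread from the other group and assume that the lone library varies likewise. The highest lens gene was Cryaa and the highest pigment epithelium gene Ttr. Photoreceptor genes were among the most abundant of every library, with Rbp3 between 1877 and 2442 TPM, as the label of retina requires. Because these are whole retinas, fewer cells of a type and less RNA per cell cannot be told apart.

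At postnatal day 9, all 8 factors were expressed, and their levels spanned a wide range. The photoreceptor factor Crx was the highest and the LIM-homeodomain factor Lhx2 the lowest. In TPM, the order was Crx, Neurod1, Otx2, Rax, Pax6, Six3, Six6 and Lhx2, and the values of neighbours in this order did not overlap over the 4 libraries. Crx lay between 1618 and 1793 TPM and ranked 33 among all genes of the table. Neurod1, with between 1051 and 1243 TPM, was the next, and the mean of Crx was 1.52 times its mean. The widest step lay between Neurod1 and Otx2, whose mean was lower by a factor of 2.78, with values between 401.2 and 411.4 TPM. The 3 photoreceptor factors thus stood above the 5 eye-field factors. Rax had between 272.4 and 341.5 TPM and Pax6 between 211.8 and 237.4 TPM, a ratio of means of 1.30, the narrowest step of the order. Six3 had between 146.4 and 175.7 TPM, and another wide step, of 2.19, separated it from Six6. The lowest pair were Six6, with between 68.8 and 77.5 TPM, and Lhx2, with between 52.9 and 59.1 TPM and rank 4064.

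**Figure D1:**
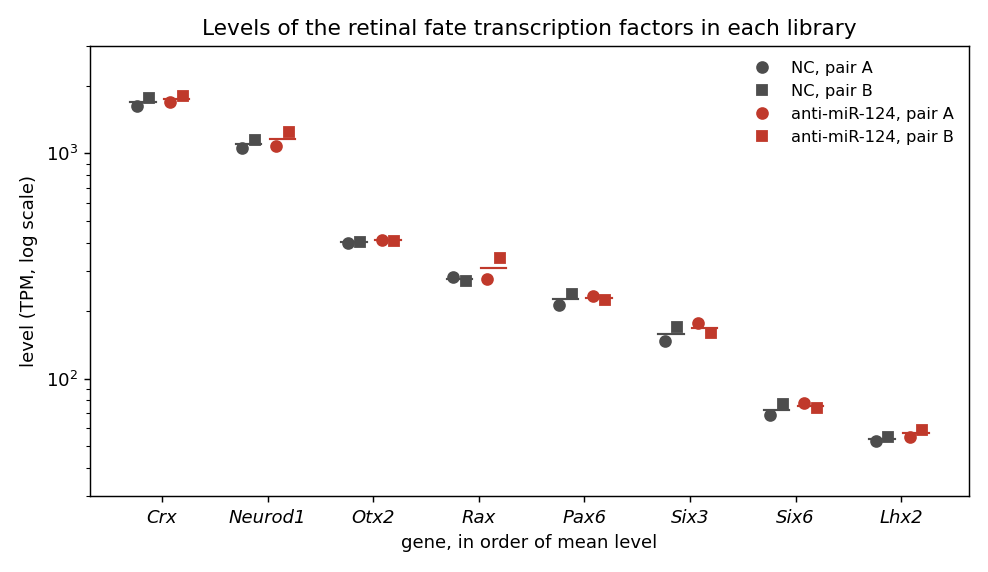
TPM (log scale) of each factor in the 4 libraries, with NC in grey and anti-miR-124 in red, circles for pair A, squares for pair B and a short line at the mean of each group. The values descend from Crx at 1618 to 1793 TPM to Lhx2 at 52.9 to 59.1 TPM, and those of neighbouring genes do not overlap.

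The comparison of the anti-miR-124 group with the NC group asks whether the level of a factor differed when miR-124-3p was inhibited. None of the 8 factors passed the test. By the quasi-likelihood test of edgeR, 0 of the 8 had an adjusted p-value under 0.05 and 0 had an unadjusted p-value under 0.05. The same test called 0 of all 17766 genes tested (0.0%) after adjustment and 694 (3.91%) before it. DESeq2 called 33 genes after adjustment, none of them a factor. All 8 factors passed the filter on low counts. Their log2 fold changes (anti-miR-124 over NC) lay between -0.029 and 0.10, with a median of 0.0175 and a median size of 0.029. Over all genes tested, the median was 0.000662 and the median size 0.101, and each of the 8 lay under this size. The median standard error of all genes was 0.133, against 0.0544 to 0.0793 among genes with a level like that of a factor, and of such genes between 3.23% (for Crx) and 80.1% (for Rax) had a smaller difference than the factor. On TMM-normalized counts, the 2 groups overlapped for every factor, so that 0 of 8 were separated, while 33.3% of all tested genes were. The direction was opposite in the 2 pairs for every factor, so that 0 of 8 had the same direction in both pairs, against 46.7% of all tested genes. Opposite directions by themselves make the groups overlap, so these 2 counts are not separate results. The pairs rest on the shared number, which is not shown to pair the samples. Lhx2, Rax, Neurod1, Otx2 and Crx were lower in anti-A than in NC-A and higher in anti-B than in NC-B, and Pax6, Six3 and Six6 were the reverse.

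The scale matters for the directions within pair A. As TPM ratios, which include the lens share of the NC library, Lhx2, Neurod1, Otx2 and Crx were higher in both pairs. The groups of Lhx2 and Otx2 did not overlap. In pair A the log2 TPM ratios of these factors were 0.058, 0.043, 0.036 and 0.069, each under the median of 0.0981 over the tested genes. On the TPM scale, the shares of all tested genes that were higher in both pairs or did not overlap were not counted. Neither pattern is therefore read as a result about the factors. With the lens markers left out of the TPM sum, 0 of 8 had the same direction in both pairs. Without NC-A in the fit, which leaves NC-B alone in the NC group, the log2 fold changes lay between -0.045 (Pax6) and 0.198 (Rax). The 95% intervals of the fold changes extended at least 0.0925 and at most 0.281 to either side on the log2 scale, with 2 libraries per group. An estimate closer to 0 than the limit of its gene does not reach an unadjusted p-value under 0.05. Adjustment over all tested genes asks for more, and in the same fit Opn1sw with a log2 fold change of -0.821 was not called. Differences well beyond these limits could thus be missed. An exact permutation test of 2 against 2 libraries cannot give a p-value under 0.333.

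**Figure D2:**
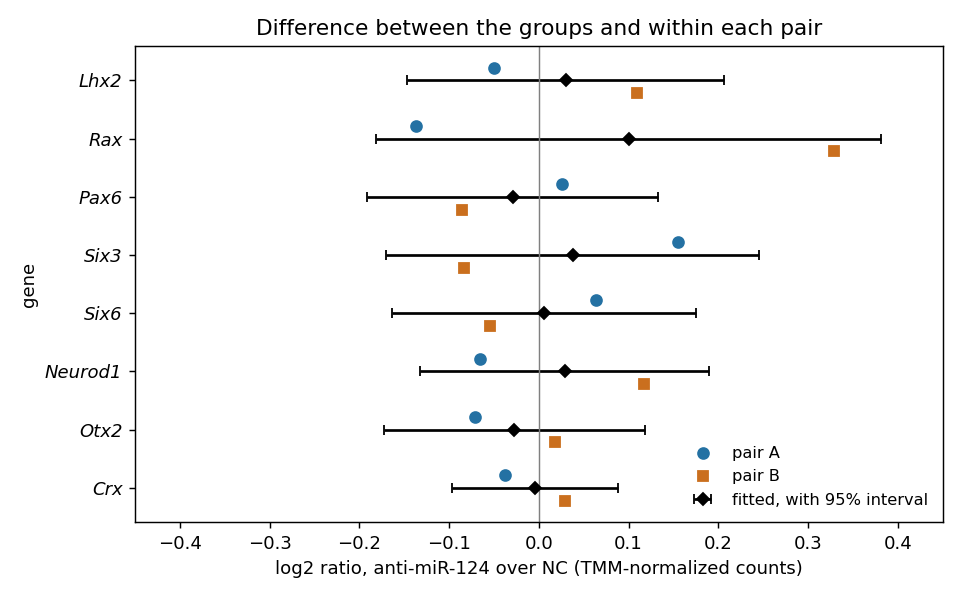
Log2 ratio of anti-miR-124 over NC on TMM-normalized counts for each factor, with circles for pair A, squares for pair B, and diamonds with bars for the fitted log2 fold change and its 95% interval. Every interval crosses 0, and the 2 pairs lie on opposite sides of 0 for all 8 factors.

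Lhx2 is a LIM-homeodomain factor that progenitors need for proliferation and Müller glia for their differentiation. It lies on the plus strand of chromosome 2 at chr2:38339281-38369737 (GRCm38) and has 5 exons in its longest annotated transcript. Lhx2 had 1003 counts in NC-A and 1027 in anti-A, and 1066 in NC-B and 1200 in anti-B. After TMM normalization these were 62.3 and 60.2 CPM (counts scaled to a common library size) in pair A and 59.0 and 63.7 CPM in pair B. Anti-A was thus lower than NC-A and anti-B higher than NC-B, with log2 ratios of -0.05 and 0.11. The mean level was 53.9 ± 1.43 TPM in the NC group and 57.1 ± 2.85 TPM in the anti-miR-124 group (SD, n = 2). The fit on the counts gave a log2 fold change of 0.03 (standard error, SE, 0.07, edgeR adjusted p = 0.9895). Its 95% interval reached from -0.15 to 0.21, which is a fold of between 0.903 and 1.15. Of 2583 genes whose level lay within 0.5 of Lhx2 on the log2 CPM scale, 23.8% had a smaller difference. Across the 4 libraries, the centred log2 values of Lhx2 were most like those of Cuedc1 (distance 0.0038), Snx10 (0.0135) and Ypel2 (0.0142) among 10692 genes, a likeness over 4 values only.

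Rax, a paired-type homeodomain factor that is among the first of the eye field, showed the widest spread of the 8. It lies on the minus strand at chr18:65934639-65939089 and has 2 exons in its longest annotated transcript. Rax had 2509 counts in NC-A, 2418 in anti-A, 2470 in NC-B and 3240 in anti-B. TMM-normalized, these were 155.8 and 141.6 CPM in pair A and 136.8 and 171.9 CPM in pair B. Anti-B was the highest and NC-B the lowest, and anti-A lay between both NC libraries. The mean level was 277.9 ± 7.69 TPM in the NC group and 309.5 ± 45.3 TPM in the anti-miR-124 group (SD, n = 2). Within pair A the log2 ratio was -0.14, within pair B it was 0.33, and the fitted log2 fold change was 0.10 (SE 0.12, 95% interval -0.18 to 0.38, edgeR adjusted p = 0.9886). This value rested on pair B, as it was -0.042 without anti-B and 0.008 without NC-B. Without NC-A it was 0.198, and without anti-A 0.232. The library anti-B also held the most microglia RNA, with 713.0 TPM over the 15 markers, and its part in the result was not tested. The gene most like Rax over the 4 libraries was Scamp2 (distance 0.0141).

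Pax6, Six3 and Six6 shared 1 pattern, with anti-A above NC-A and anti-B below NC-B. Pax6 is the paired and homeodomain factor at the head of eye development. The gene lies on the plus strand at chr2:105668896-105698410 and has 8 exons in its longest annotated transcript. Pax6 had 5351 counts in NC-A, 5777 in anti-A, 6140 in NC-B and 6041 in anti-B. TMM-normalized, these were 332.2, 338.4, 340.0 and 320.5 CPM in the same order. Anti-B was the lowest, and the other 3 libraries lay close together. The mean was 224.6 ± 18.1 TPM in the NC group and 227.8 ± 6.51 TPM in the anti-miR-124 group (SD, n = 2). For Pax6, the fit gave a log2 fold change of -0.029 (SE 0.067, 95% interval -0.19 to 0.13, edgeR adjusted p = 0.9894).

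Six3 represses Wnt genes in the early eye field. It lies on the plus strand at chr17:85613608-85626191 and has 2 exons in its longest annotated transcript. Its counts were 2942 in NC-A, 3473 in anti-A, 3480 in NC-B and 3430 in anti-B. After TMM normalization, the values of 182.7, 203.4, 192.7 and 182.0 CPM in the same order placed the 2 anti-miR-124 libraries at the top and at the bottom, with both NC libraries between them. Within pair A the log2 ratio was 0.16, within pair B it was -0.083, and the fitted log2 fold change was 0.038 (SE 0.087, 95% interval -0.17 to 0.25, edgeR adjusted p = 0.9893). The mean level was 157.8 ± 16.1 TPM in the NC group and 167.5 ± 11.6 TPM in the anti-miR-124 group (SD, n = 2).

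Six6 is a close relative of Six3 that keeps progenitors in the cell cycle. It lies on the plus strand at chr12:72939882-72944899 and has 2 exons in its longest annotated transcript. Six6 had 1467 counts in NC-A, 1626 in anti-A, 1674 in NC-B and 1683 in anti-B. These became 91.1, 95.2, 92.7 and 89.3 CPM after TMM normalization, the narrowest range of the 3 in CPM, again with the anti-miR-124 libraries at either end. Mean levels were 72.7 ± 5.58 TPM in the NC group and 75.6 ± 2.71 TPM in the anti-miR-124 group (SD, n = 2). Fitted over all libraries, the log2 fold change of Six6 was 0.006 (SE 0.071, 95% interval -0.16 to 0.18, edgeR adjusted p = 0.9981). Of 2204 genes of similar level, 4.9% had a smaller difference than Six6. The genes most like these 3 factors over the 4 libraries were Thoc5 for Pax6 (distance 0.0048), Dkc1 for Six3 (0.0115) and Gm10052 for Six6 (0.0073).

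The photoreceptor factors Neurod1, Otx2 and Crx were the most deeply counted of the 8 and had the narrowest intervals. Neurod1, a bHLH factor of photoreceptor differentiation, lies on the minus strand at chr2:79452641-79456636 and has 2 exons in its longest annotated transcript. It had 13912 counts in NC-A, 14098 in anti-A, 15558 in NC-B and 17617 in anti-B. TMM-normalized, NC-A and NC-B had 863.8 and 861.6 CPM and were nearly equal, while anti-A with 825.8 CPM and anti-B with 934.6 CPM lay on either side of them. The mean was 1100 ± 68.7 TPM in the NC group and 1163 ± 113.0 TPM in the anti-miR-124 group (SD, n = 2). Neurod1 had a fitted log2 fold change of 0.029 (SE 0.067, 95% interval -0.13 to 0.19, edgeR adjusted p = 0.9894). Without anti-A, which leaves anti-B alone in its group, it was 0.115. Without anti-B, Neurod1 had a log2 fold change of -0.058.

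Otx2 lies on the minus strand at chr14:48657452-48667644 and has 6 exons in its longest annotated transcript. It had 10928 counts in NC-A, 11026 in anti-A, 11313 in NC-B and 11961 in anti-B. After TMM normalization, NC-A was the highest at 678.5 CPM and NC-B the lowest at 626.5 CPM, and anti-A and anti-B lay between them at 645.9 and 634.5 CPM. In TPM, the means were 403.5 ± 3.18 for NC and 410.7 ± 1.08 for anti-miR-124 (SD, n = 2). The values of the groups did not overlap on this scale, which includes the lens share of NC-A and for which the share over all tested genes was not counted. With the lens markers left out of the TPM sum, the NC mean was 416.9. The log2 fold change of Otx2 was -0.028 (SE 0.061, 95% interval -0.17 to 0.12, edgeR adjusted p = 0.9886), and 0.032 without NC-A.

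Crx gave the tightest bound of all. It lies on the minus strand at chr7:15865947-15879955 and has 4 exons in its longest annotated transcript. Crx had 25910 counts in NC-A, 26742 in anti-A, 28886 in NC-B and 30765 in anti-B. The TMM-normalized values were 1609 and 1566 CPM in pair A and 1600 and 1632 CPM in pair B, so both NC libraries lay between the 2 anti-miR-124 libraries, as for Neurod1. The mean was 1690 ± 101.8 TPM in the NC group and 1745 ± 67.9 TPM in the anti-miR-124 group (SD, n = 2). Crx had a log2 fold change of -0.004 (SE 0.039, edgeR adjusted p = 0.9981), and its 95% interval of -0.097 to 0.088 corresponds to a fold of between 0.935 and 1.06. There were 31 genes of similar level. Over the 4 libraries, the genes most like the 3 photoreceptor factors were Ivd for Neurod1 (distance 0.009), Psmb4 for Otx2 (0.0031) and Zdhhc3 for Crx (0.0097).

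Several of the factors overlap other genes of the table, all of them on the opposite strand. The library kit marks the strand, but the strand setting of the counting is not given in the sources used here, so reads from such a partner cannot be told apart from those of the factor. The lncRNA Six3os1 shares 4789 bases of its span with Six3 and had 90.6% as many counts as Six3, namely 2712 in NC-A, 2919 in anti-A, 3287 in NC-B and 3159 in anti-B. The fit gave Six3os1 a log2 fold change of -0.05 (SE 0.078). For Rax, the lincRNA ENSMUSG00000097907.1 shares 1552 bases and had 49.7% as many counts, with 1219 and 1224 in pair A and 1225 and 1616 in pair B, so that it was highest in the same library as Rax. Its log2 fold change was 0.13 (SE 0.11). Pax6 overlaps the end of Elp4, a gene of the Elongator complex, over 1091 bases, and Elp4 had between 1504 and 1840 counts, a log2 fold change of 0.006 (SE 0.076). Pax6 also overlaps Pax6os1, with between 71 and 82 counts and a log2 fold change of -0.16 (SE 0.23). The remaining partners, 2 of Lhx2 (ENSMUSG00000087539.1 and Gm27197), 1 of Six3 (ENSMUSG00000099635.1) and 1 of Neurod1 (ENSMUSG00000097843.1), had at most 68 counts in any library. Six6, Otx2 and Crx overlap no other gene of the table. Of the 6 listed opposite-strand transcripts of fate factors, 4 were in the table and tested, and 0 of them had an unadjusted p-value under 0.05. The 2 of these that overlap none of the 8 factors were Otx2os1, with 137, 133, 193 and 170 counts in NC-A, anti-A, NC-B and anti-B, and Vax2os, with 238, 202, 266 and 239. Their log2 fold changes were -0.19 (SE 0.19) and -0.27 (SE 0.12).

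LIM-homeodomain factors such as Lhx2 act in complexes with Ldb1, which dimerises them, and are held back by LIM-only proteins that compete for Ldb1. Of 10 genes of these cofactors, 0 had an unadjusted p-value under 0.05, and their log2 fold changes had a median of 0.031, or 0.050 without anti-A and 0.068 without NC-B. Without NC-A the median was 0.03, and without anti-B 0.023. The most abundant were Ssbp3, which stabilises Ldb1, with a log2 fold change of 0.04 (SE 0.069), Ldb1 itself with 0.006 (SE 0.069), and the LIM-only gene Lmo4 with 0.13 (SE 0.072).

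Genes of the same stages and cell types as the factors were described with lists of other genes. In the background of all 17766 tested genes, 2.23% were higher and 1.68% lower at an unadjusted p-value under 0.05, and no gene of any list passed after adjustment. Among 18 other progenitor and eye-field genes, 0 were higher and 1 lower, with a median log2 fold change of -0.01, which was 0.019 without NC-A and 0.007 without anti-A. The cell cycle gene Ccnd1 had a log2 fold change of -0.15 (SE 0.12) and the TALE homeodomain gene Meis2 of 0.002 (SE 0.074). The 1 gene below the threshold was Lin28b, a regulator of let-7 microRNAs, named after its values were seen, with 59 and 40 counts in pair A and 76 and 31 in pair B. Without NC-B the median of the list was -0.019, and without anti-B -0.018. Among 12 other regulators of photoreceptor fate, 1 was higher and 0 lower, with a median of 0.052, or 0.125 without anti-A and 0.10 without NC-B. It was Nrl, the leucine zipper factor that sets the rod fate, with 1338 and 1554 TPM in pair A and 1445 and 1662 TPM in pair B. Nrl was higher in anti-A than NC-A and in anti-B than NC-B and its groups did not overlap, with a log2 fold change of 0.16 (SE 0.045, edgeR adjusted p = 0.9886). Nr2e3, which keeps rods from cone gene expression, had a log2 fold change of 0.10 (SE 0.056) and Samd7 of -0.009 (SE 0.11). Without NC-A the median of this list was 0.043, and without anti-B 0.062.

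Bipolar, amacrine, horizontal, ganglion and Müller cells are the other fates that Otx2, Pax6, Six3 and Lhx2 take part in. Of 16 bipolar genes, 0 had an unadjusted p-value under 0.05 and the median was -0.061, with 0.14 within pair A against -0.28 within pair B, and 0.033 without NC-B and 0.058 without anti-B. The most abundant were Neurod4 (log2 fold change -0.05, SE 0.065), Isl1 (-0.07, SE 0.099) and Prdm8 (-0.026, SE 0.093). Of 22 tested amacrine, horizontal and ganglion regulators, 3 were higher and 0 lower, with a median of 0.091. This median was 0.22 within pair A and -0.014 within pair B, and -0.008 without anti-A and 0.039 without NC-A. These 3, named after their values were seen, were Onecut2, Lhx9 and the horizontal cell factor Lhx1, with log2 fold changes of 0.23, 0.31 and 0.44. The most abundant of the list were Tfap2b (0.02, SE 0.07), Prox1 (-0.001, SE 0.067) and Tfap2a (0.009, SE 0.066). Without NC-B the median of this list was 0.113, and without anti-B 0.137. Of 14 Müller glia genes, 2 were higher and 0 lower, with a median of 0.079. It was -0.029 within pair A and 0.159 within pair B, 0.141 without anti-A and -0.004 without anti-B. Apoe, which carries lipids and is also a gene of microglia, had 532.8 and 605.2 TPM in pair A and 552.2 and 1055 TPM in pair B, so that its log2 fold change of 0.56 (SE 0.23) rested on anti-B, in which the 15 microglia markers summed to 713.0 TPM. The other was Nfia, with 0.29 (SE 0.07), named after its values were seen. Vim, an intermediate filament of glia, had a log2 fold change of 0.19 (SE 0.28) and Crym of -0.065 (SE 0.08). Without NC-A, the median was 0.057 for the Müller list and -0.129 for the bipolar list. That of the Müller list was 0.076 without NC-B, and that of the bipolar list -0.174 without anti-A. Of 14 tested relatives of the factors in the same gene families, 2 were higher and 0 lower, with a median of 0.182, and these 2 were Lhx9 and Lhx1 again. Their median was -0.044 within pair A and 0.24 within pair B, and 0.064 without anti-B. This median was 0.139 without NC-A, 0.262 without anti-A and 0.171 without NC-B.

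**Figure D3:**
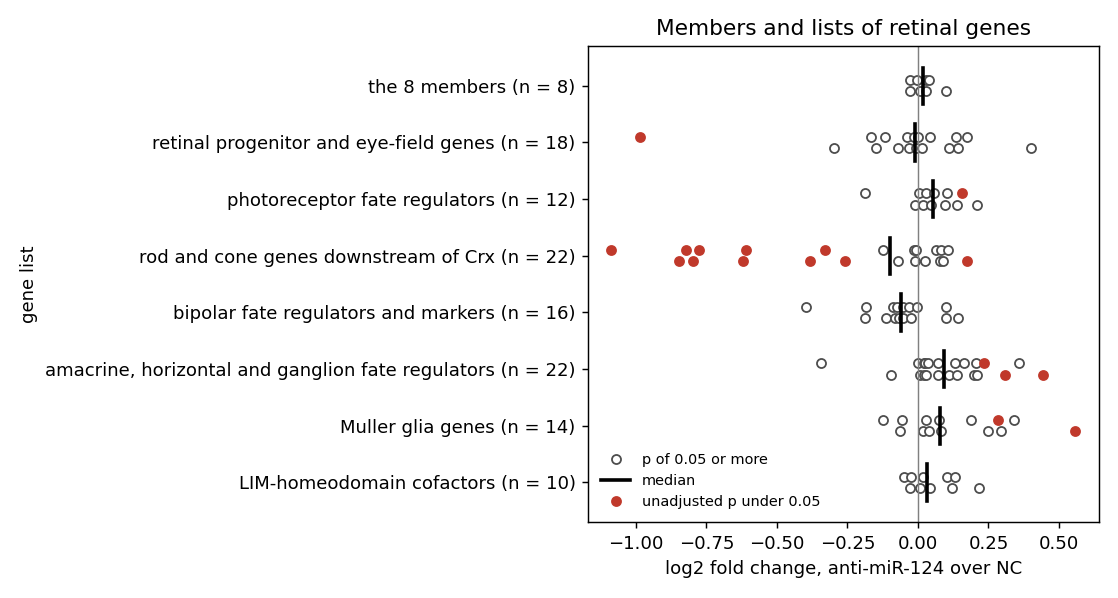
Log2 fold change (anti-miR-124 over NC) of the 8 factors and of the tested genes of 7 lists, with filled points for an unadjusted edgeR p-value under 0.05, open points for the others and a bar at the median of each list. The 8 factors lie within 0.10 of 0, and the list of rod and cone genes has 10 filled points below 0 and 1 above it.

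In a list of genes that Crx regulates, cone genes and some rod genes had lower levels after inhibition before adjustment, and none passed after it. Of 22 rod and cone genes downstream of Crx, 1 was higher and 10 were lower after inhibition at an unadjusted p-value under 0.05, against 2.23% and 1.68% of all tested genes. Over the whole retina, the factors Crx, Otx2 and Neurod1 had log2 fold changes of -0.004, -0.028 and 0.029, and their levels in cones alone were not measured. The groups did not overlap for 16 of the 22, against 33.3% of all tested genes, and the median log2 fold change was -0.098, with a range from -1.09 to 0.18. Without anti-A the median was -0.055. The list was made with earlier results of these data known, so it is not independent evidence of its direction. The most abundant, Rbp3, which carries retinoids between photoreceptors and pigment epithelium, was the gene that was higher. Rbp3 had 1877 and 2275 TPM in NC-A and anti-A and 2160 and 2442 TPM in NC-B and anti-B. The log2 fold change on normalized counts was 0.18 (SE 0.039, edgeR adjusted p = 0.989). The disc rim proteins Rom1 and Prph2, the next in abundance, had log2 fold changes of 0.10 (SE 0.051) and 0.08 (SE 0.051).

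The genes that were lower are named here after their values were seen. All 6 cone genes of the list were among them. The short-wave cone opsin Opn1sw had 207.5 and 155.1 TPM in NC-A and anti-A and 261.5 and 118.8 TPM in NC-B and anti-B, and both anti-miR-124 libraries lay below both NC libraries. Its log2 fold change of -0.82 (SE 0.14, edgeR adjusted p = 0.8551) had the smallest p-value of the list. Gnat2, the cone transducin, had 89.6 and 66.2 TPM in pair A and 93.1 and 42.8 TPM in pair B, with a log2 fold change of -0.80 (SE 0.19). The other cone genes were the middle-wave opsin Opn1mw (-1.09, at 24 to 72 counts per library), the cone phosphodiesterase subunits Pde6c (-0.62) and Pde6h (-0.33), and the cone arrestin Arr3 (-0.61). For each of these 6 genes, the ratio was further from 0 in pair B than in pair A. The 15 microglia markers summed to 713.0 TPM in anti-B, and their part in this was not tested. The remaining 4 were the rod transducin subunits Gnat1 (-0.38) and Gngt1 (-0.26) and the guanylate cyclase activators Guca1a (-0.85) and Guca1b (-0.78). The other rod genes of the list did not pass, for example Sag, the rod arrestin, with 0.09, and Pde6b, a rod phosphodiesterase subunit, with 0.08. Outside the list, the cone-linked fate regulators Rxrg, Thrb and Sall3 did not pass either, with log2 fold changes of -0.186, 0.029 and 0.046. Over the 22 genes of the list, the median log2 fold change was -0.084 without NC-A, -0.137 without NC-B and -0.103 without anti-B. Of the promoters printed above, that of Rbp3, which was higher, and that of Gnat2, which was lower, both hold GGATTA. Of windows not printed, that of Opn1sw, which was lower, held 0, and that of Sag, which did not pass, held 1. Whether the core goes with the direction of a gene was not tested, and these few genes cannot show it.

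**Figure D4:**
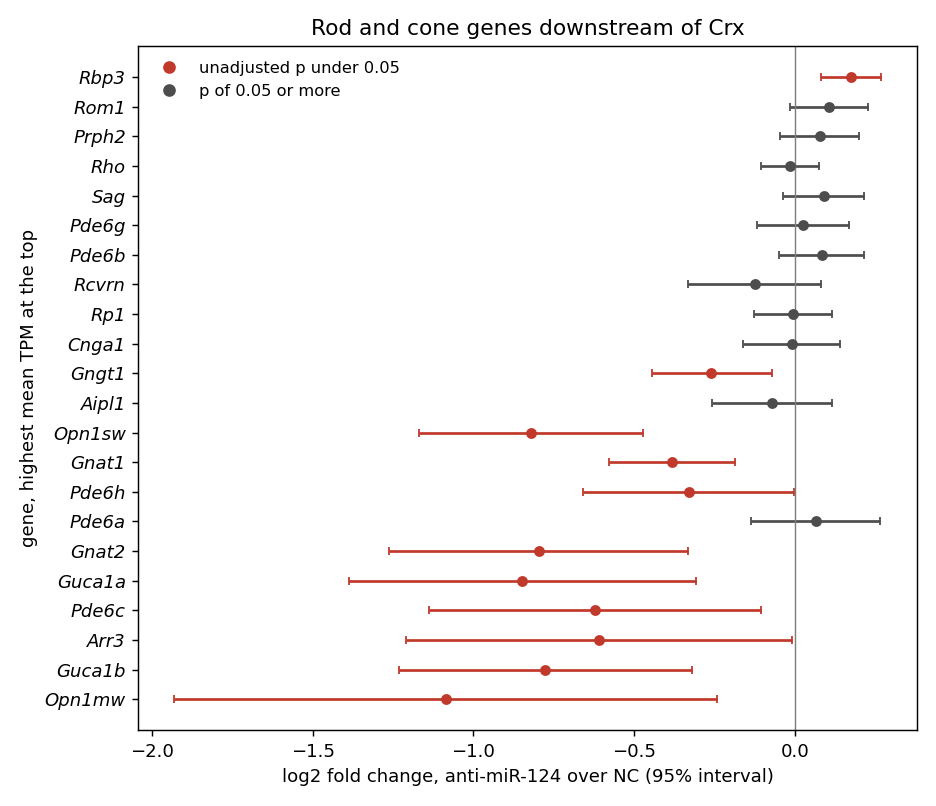
Log2 fold change (anti-miR-124 over NC) with its 95% interval for the 22 rod and cone genes downstream of Crx, ordered by mean TPM with the highest at the top, in red for an unadjusted edgeR p-value under 0.05. The most abundant genes lie near or above 0, from Rbp3 at 0.18 downwards, and the genes with the lowest values, to -1.09 for Opn1mw, are in the lower part of the order.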

How the data were processed

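Per the labels, total RNA was extracted with TRIzol and made into libraries with a directional kit. The authors deposited raw read counts for each gene, with gene positions and lengths. A further 4 columns hold RPKM values of the authors and were not used. The submitters' notes name HISAT2 and mm9, but 99.8% of 36837 matched symbols overlap GRCm38 in position, and all 8 factors do. Columns were assigned by the eye they name. TPM was computed from counts and lengths. Differences were tested with edgeR 4.0.16 (R 4.3.3) by the quasi-likelihood test with TMM normalization, the filterByExpr filter and no covariate, two-sided, with Benjamini-Hochberg adjustment over all tested genes and a threshold of 0.05, and the code was tested on simulated data. Standard errors were derived from the F statistic. Depth limits the precision of genes with few counts, and the intervals include it. The factors and the 12 gene lists were chosen with earlier results of these data known. Named by rule were the 8 factors, genes overlapping them, the nearest genes by centred log2 CPM (mean CPM of at least 10), and the 3 most abundant genes of each list. The values of 2 genes that this rule names are not reported here. Other scalings, filters, tests (DESeq2 1.42.0, limma-voom 3.58.1) and designs, and leaving out each library, were alternatives.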

Additional observations from a re-analysis of the deposited data

How the results depend on the processing

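None of the 8 factors was called under any of 14 alternatives (smallest adjusted p 0.4947), and 98 of 112 fold changes kept their direction, or 77 of 80 with all libraries in the fit, where none exceeded 0.109 in size. The log2 fold change of Crx was 0.004 with library totals, 0.002 without the lens markers and 0.003 without the filter. Leaving out each library in turn gave -0.009 to 0.070 for Lhx2 (-0.007 without anti-B), -0.042 to 0.232 for Rax, -0.069 to 0.014 for Pax6, -0.045 to 0.121 for Six3, -0.042 to 0.056 for Six6 (-0.006 without NC-A), -0.058 to 0.115 for Neurod1, -0.085 to 0.032 for Otx2, and -0.030 to 0.024 for Crx (0.001 without NC-A). Over all genes, 379 were called without the filter, 33 with DESeq2, and 0 to 256 when a library was left out, 256 without anti-A, 57 without NC-B and 12 without anti-B. These counts come from other sets of tested genes or other tests, and their cause was not tested. The log2 TPM ratios of pair A became -0.036 (lens markers left out of the sum) and -0.05 (TMM) for Lhx2, -0.05 and -0.065 for Neurod1, -0.057 and -0.071 for Otx2, and -0.024 and -0.038 for Crx. The NC means without the lens markers were 55.7 TPM for Lhx2, 287.3 for Rax and 416.9 for Otx2.

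With the shared number as a replicate block, 0 genes were called and the fold changes of the factors ranged from -0.030 (Pax6) to 0.097 (Rax), with 0.030 for Lhx2. Deviations of same-numbered libraries correlated at -0.16 over 17766 genes, and the number is not shown to pair the samples. With 2 libraries per group, the deviations within a group mirror each other, so this correlation cannot decide whether the libraries are paired. With the numbers crossed, an alternative chosen after seeing the data, 160 genes were called, none of them a factor. Medians of the gene lists without each library were also taken after seeing the data.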
